A study of Mus musculus with 6 samples.

Results

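Of 20720 protein-coding genes on chromosomes 1 to 19 of the mouse, 5230 had no peak of accessible chromatin at any of their start sites in any of 6 face libraries. These genes are called closed here, and they are 25.2% of the genes considered. They were chosen by the absence of peaks, by laying a window of 1 kb on each side of every start site of a protein-coding transcript (39540 start sites) and keeping the genes whose windows no peak of any library touched, by so much as 1 bp. Every statement on their peaks below is therefore a description and carries no test. Among the 18250 genes in whose windows at least 90% of the 50-base stretches occur once in the genome, 3438 were closed, or 18.8%.

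The libraries were bulk ATAC-seq of face tissue from wild-type E11.5 mouse embryos, with 2 libraries for each of the labels nose, mandibular process and maxillary process, and with a cell type given as mixed. ATAC-seq uses the Tn5 transposase, which cuts and tags DNA that is not wrapped in nucleosomes, so that a peak marks a stretch cut more often than its surroundings. No agent, allele or mutation separated the groups, and whether the 2 libraries of one label are of different embryos is not given. The names of the 4 jaw files carry the abbreviation of the other jaw process, so those libraries are given here by their labels alone.

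Promoters of genes that a cell uses, or holds ready, are usually free of nucleosomes. Promoters rich in CpG dinucleotides tend to be open in most cell types whether or not the gene is used, whereas promoters poor in CpG tend to open only where the gene is active. In mammals chemosensory receptor genes lie in large clusters. Many genes of the germ line have CpG-rich promoters that are silenced by DNA methylation in the body's other cells.

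Each list held between 219779 and 299731 peaks. Markers of the cell types of the face had a peak in at least 1 library, as did 15490 of all 20720 genes. None of 9 facial mesenchyme markers, 7 surface epithelium markers, 5 endothelial markers, 5 markers of embryonic blood, 5 neuronal markers, 5 markers of head muscle progenitors and 12 housekeeping genes was closed. All of the mesenchyme, neuronal and housekeeping genes were open in every library. So were 6 of the 7 epithelial, 4 of the 5 muscle, 3 of the 5 endothelial and 3 of the 5 blood markers. Pecam1 of the endothelium had a peak in 1 library and Krt8 of the epithelium in 3. Reads were not used here, so a closed promoter is one without a called peak, and neither a limit of detection nor the share of cells in which it might be open can be given. In mixed tissue, few cells with an open promoter and no cell with one cannot be told apart.

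The sequences of 8 closed promoters show the 2 kinds of promoter and the copied genes found in the set. Each is the stretch of 250 bases before the start of the gene in the RefSeq annotation, GRCm38.p6, read 5′ to 3′ on the strand of the gene, with each CpG in capitals. None overlaps an annotated exon. Sycp1 (chr3:102936101-102936350, minus strand), Meioc (chr11:102665335-102665584, plus strand), Hsf5 (chr11:87616914-87617163, plus strand) and Papolb (chr5:142530077-142530326, minus strand) are CpG-rich. Enam (chr5:88487725-88487974, plus strand), Mmp20 (chr9:7627981-7628230, plus strand) and the olfactory receptor gene Olfr345 (chr2:36639791-36640040, plus strand) hold no CpG at all. Vmn1r138 (chr7:22028898-22029147, minus strand), a vomeronasal receptor gene, is the closed gene farthest from any peak.
Sycp1: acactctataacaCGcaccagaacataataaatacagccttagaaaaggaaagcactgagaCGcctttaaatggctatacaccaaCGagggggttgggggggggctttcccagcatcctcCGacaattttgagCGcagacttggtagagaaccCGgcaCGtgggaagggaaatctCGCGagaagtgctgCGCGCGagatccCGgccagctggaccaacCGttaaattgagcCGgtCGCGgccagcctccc
Meioc: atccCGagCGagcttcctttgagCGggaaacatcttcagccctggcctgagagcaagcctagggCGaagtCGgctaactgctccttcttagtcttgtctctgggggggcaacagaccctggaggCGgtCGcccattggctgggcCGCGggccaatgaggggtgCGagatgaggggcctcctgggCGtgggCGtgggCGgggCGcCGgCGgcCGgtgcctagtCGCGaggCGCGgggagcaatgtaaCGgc
Hsf5: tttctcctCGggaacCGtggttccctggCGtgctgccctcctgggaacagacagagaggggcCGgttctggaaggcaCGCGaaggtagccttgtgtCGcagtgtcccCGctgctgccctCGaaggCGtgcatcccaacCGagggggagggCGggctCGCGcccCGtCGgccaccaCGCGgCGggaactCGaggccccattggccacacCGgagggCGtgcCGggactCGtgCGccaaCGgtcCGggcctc
Papolb: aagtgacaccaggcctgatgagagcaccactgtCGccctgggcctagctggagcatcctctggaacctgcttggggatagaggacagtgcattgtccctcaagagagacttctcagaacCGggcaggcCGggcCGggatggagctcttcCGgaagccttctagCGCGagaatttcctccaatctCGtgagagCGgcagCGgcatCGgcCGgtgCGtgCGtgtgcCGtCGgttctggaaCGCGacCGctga
Enam: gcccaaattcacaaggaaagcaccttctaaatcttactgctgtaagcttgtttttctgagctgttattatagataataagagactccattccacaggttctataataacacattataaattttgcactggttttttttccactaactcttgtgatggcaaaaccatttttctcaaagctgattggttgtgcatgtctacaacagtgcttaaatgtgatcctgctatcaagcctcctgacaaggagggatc
Mmp20: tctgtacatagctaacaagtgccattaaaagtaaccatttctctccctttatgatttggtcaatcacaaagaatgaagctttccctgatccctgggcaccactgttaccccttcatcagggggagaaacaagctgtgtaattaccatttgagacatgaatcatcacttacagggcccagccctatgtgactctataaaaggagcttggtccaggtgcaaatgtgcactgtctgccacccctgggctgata
Olfr345: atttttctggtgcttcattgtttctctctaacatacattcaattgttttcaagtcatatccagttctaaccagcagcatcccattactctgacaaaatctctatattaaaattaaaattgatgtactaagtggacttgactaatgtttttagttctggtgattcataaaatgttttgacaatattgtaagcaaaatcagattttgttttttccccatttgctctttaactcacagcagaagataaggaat
Vmn1r138: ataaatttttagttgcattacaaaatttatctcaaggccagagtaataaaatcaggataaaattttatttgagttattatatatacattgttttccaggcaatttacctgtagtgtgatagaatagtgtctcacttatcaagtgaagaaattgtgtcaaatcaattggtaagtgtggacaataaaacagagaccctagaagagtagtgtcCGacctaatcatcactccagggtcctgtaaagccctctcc
The stretch holds 17 CpG in Sycp1, 22 in Meioc, 27 in Hsf5 and 19 in Papolb, against 0 in Enam, Mmp20 and Olfr345 and 1 in Vmn1r138. The G and C share was 55.2% in Sycp1 and 70.8% in Hsf5, against 30.8% in Olfr345 and 34% in Vmn1r138. The Vmn1r138 stretch stands before the start of 4 other genes without a single difference, Vmn1r111, Vmn1r118, Vmn1r131 and Vmn1r166, all on chromosome 7 and all closed. A read of 50 bases from such a stretch matches all the copies alike.

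Olfactory receptor genes, which encode the odorant receptors of the nose, were the largest family among the closed genes. Of 1127 such genes 1007 were closed, or 89.4%, beside 25.2% of all genes. Among those with at least 90% unique windows 727 of 827 were closed, or 87.9%. The vomeronasal receptors, which sense pheromones, were closed at 196 of 208 genes of type 1 and 115 of 121 of type 2. All 15 trace amine-associated receptors and all 7 formyl peptide receptor genes were closed. Of the bitter taste receptors of type 2, 33 of 35 were closed, the exceptions being Tas2r126 and Tas2r138 with a peak in 1 library each. Chemosensory receptors, a name used here for all of these families with the formyl peptide receptors counted in, together made up 1373 of the 5230 closed genes.

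**Figure D1:**
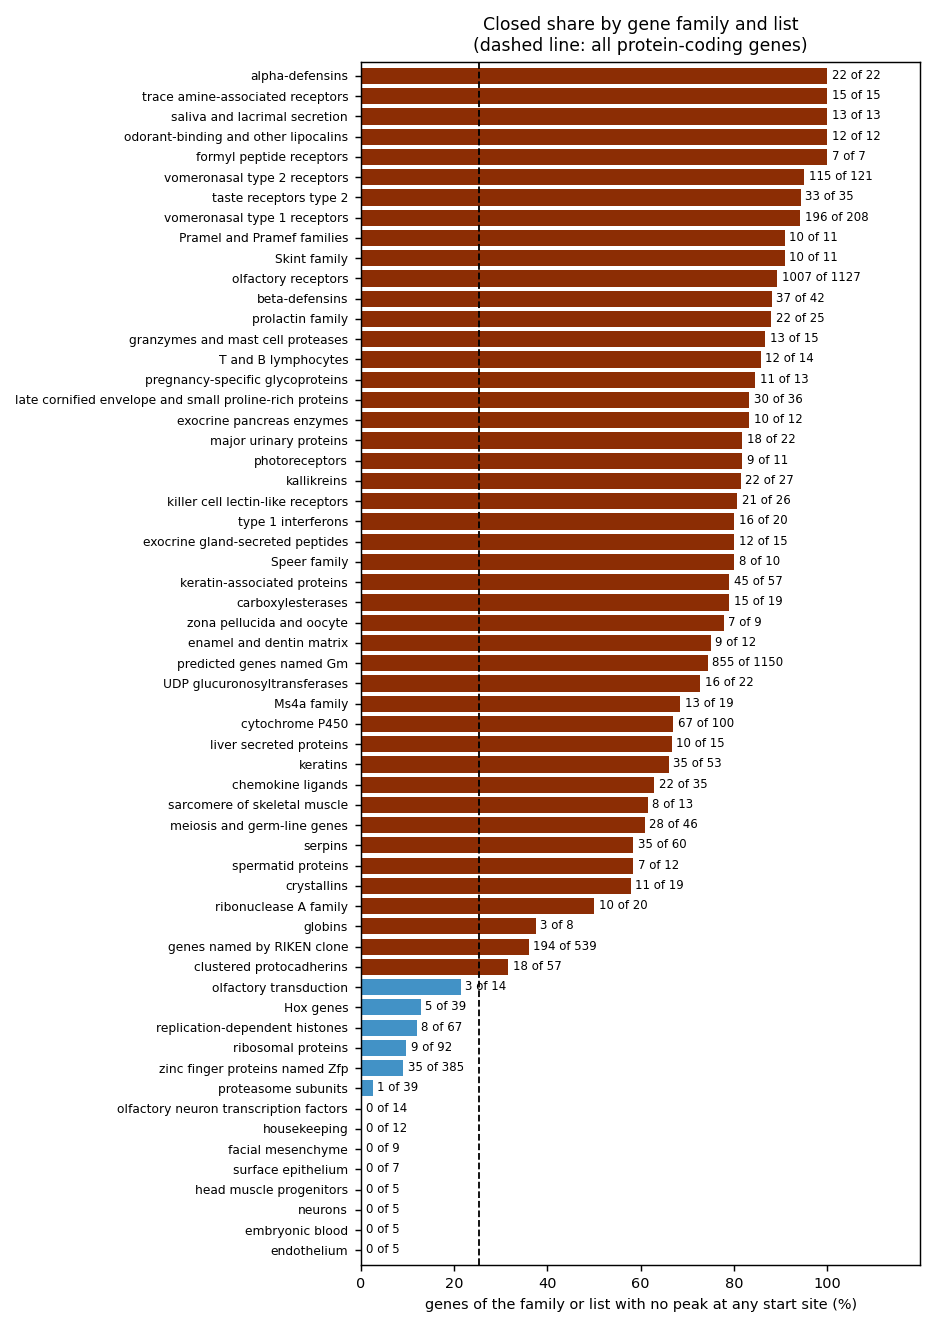
Share of closed genes in each family or list (bars, in percent, with the number closed of the number considered) and in all protein-coding genes (dashed line, 25.2%). At the top, with 100%, lie the alpha-defensins, trace amine-associated and formyl peptide receptors, saliva genes and lipocalins, and the markers of the cell types of the face and the housekeeping genes lie at 0%.

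The libraries labelled nose did not stand apart at the olfactory receptor genes. Alone, the 2 nose libraries left 1085 and 1081 of the 1127 genes closed. The maxillary process libraries left 1087 and 1087 closed, and the mandibular process libraries 1075 and 1069. The 2 nose values lay between those of both jaw labels. An exact permutation test of 2 libraries against 2 cannot pass a threshold of 0.05, and none was made.

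Other genes of the olfactory neuron gave both closed and open promoters. Of 14 genes of olfactory signal transduction 3 were closed (21.4%), near the 25.2% of all genes. Of the 11 open ones 7 were open in every library, while Omp and Rtp1 had a peak in 1 library and Rtp2 and Stoml3 in 2. Cnga4 and Cngb1 encode subunits of the cyclic nucleotide-gated channel of olfactory neurons, and Gfy encodes a Golgi protein of these neurons. The nearest peak to Gfy lay at 2669 and 2651 bp in the maxillary process libraries, 2642 and 2685 bp in the mandibular process libraries and 2675 and 2670 bp in the nose libraries. It was thus near the same place in every library, outside the window. For Cngb1 the distances, again by library from maxillary process to nose, were 13683, 5344, 3054, 2935, 9473 and 11683 bp, and no library had a peak nearer than 2.9 kb. None of 14 transcription factors of olfactory neurons and their precursors, among them Ebf1, Lhx2 and Emx2, was closed. All 14 were open in every library. They were all of the high CpG class defined below, of which only 1.88% of genes were closed. Cnga4 and Gfy were of the low class and Cngb1 of the intermediate class. The part of CpG content in this difference was not tested.

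The distance from the start sites of a closed gene to the nearest peak of any library had a median of 8846.5 bp, with quartiles of 3319 and 29609 bp. It pools the weak and strong peaks of 6 lists. With the peaks of single libraries the median was 15793 to 20408 bp over the same genes, and with genes closed to peaks of −log10 q of at least 5, counting those peaks alone, it was 16659 bp. Since the rule removed every gene with a peak within 1 kb, the lower end was set by the rule. Of the closed genes, 693 had a peak within 2 kb, 2770 (52.96%) within 10 kb and 4645 (88.8%) within 100 kb. The remaining 585 lay more than 100 kb from any peak, and 70 of them more than 1 Mb. The 10 farthest all lay in 1 cluster of vomeronasal receptor and predicted genes on chromosome 7, at 1887457 to 2052600 bp, and their windows were between 0 and 3.69% unique.

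The members just outside and just inside the threshold show how thin the line is. Adam30, Khdc1b and Gm3776 had their nearest peak at 1001 bp and were closed, and so was Sycp3 at 1004 bp. Lor, which encodes loricrin of the cornified envelope of the skin, had peaks at 1200, 1021, 1005, 1033, 1180 and 1011 bp in the 2 maxillary process, 2 mandibular process and 2 nose libraries. It was closed although each library had a peak beside it. Best1, a chloride channel gene of the retinal pigment epithelium, was likewise closed with a peak at 1007 to 1061 bp in every library. On the other side, Krt14, a keratin of basal epidermal cells, was open through a single peak of nose replicate 1 that reached to 998 bp. The next nearest peaks to Krt14 lay at 1442 to 3797 bp in the other libraries.

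**Figure D2:**
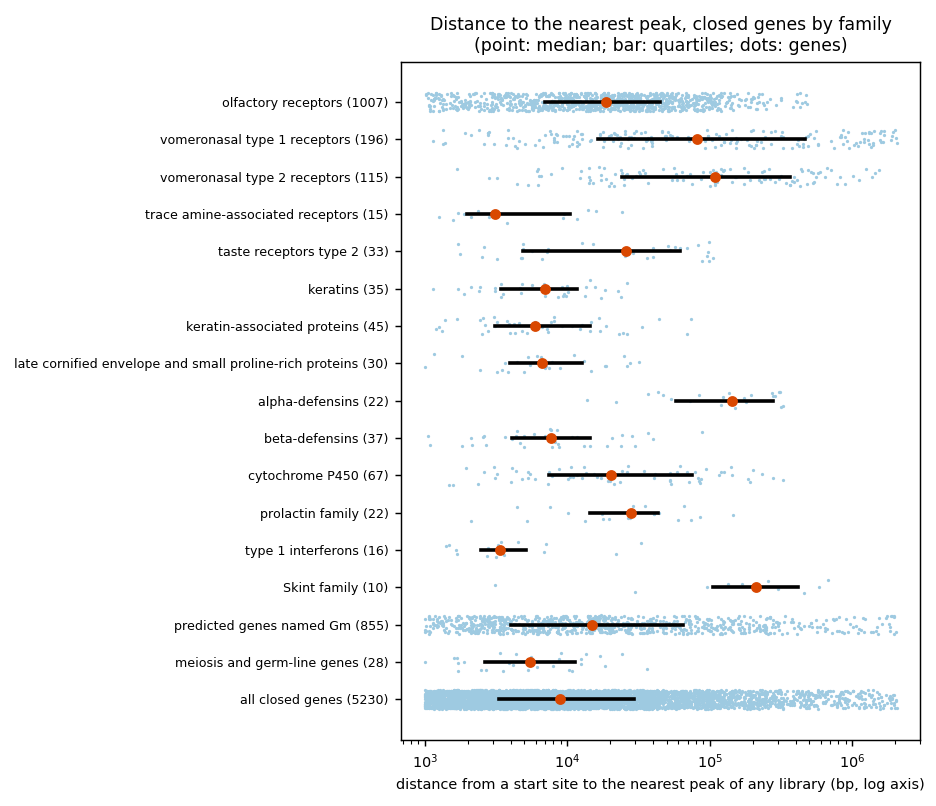
Distance from a start site to the nearest peak of any library (bp, log axis) for the closed genes of 16 families or lists and for all closed genes (points, medians; bars, quartiles; dots, genes; number of genes in brackets). Vomeronasal receptors, alpha-defensins and Skint genes lie mostly beyond 50 kb, and trace amine-associated receptors, type 1 interferons and germ-line genes mostly within 12 kb.

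The families differed widely in how far their nearest peak lay. The median was 18836 bp for olfactory receptors, 81776 bp for vomeronasal receptors of type 1 and 108697 bp for type 2, against 8846.5 bp for all closed genes. It was 144018 bp for the 22 alpha-defensins, the antimicrobial peptides of the Paneth cells of the gut, and 211570 bp for the 10 closed Skint genes, of which Skint1 is known to select T cells of the skin. Exocrine gland-secreted peptides, mouse pheromones of the tear gland, had a median of 436112 bp over 12 closed genes. The median was lower than that of all closed genes for the trace amine-associated receptors, with 3106 bp, and the type 1 interferons, with 3358 bp. For Taar3 the nearest peak was that of maxillary process replicate 2, at 1258 bp, and in the other 5 libraries it lay between 5340 and 29505 bp. Olfr202 was the olfactory receptor gene nearest to a peak, at 1063 and 1021 bp in the mandibular process libraries and 1044 bp in nose replicate 1, against 15126 bp in nose replicate 2 and 116987 and 116810 bp in the maxillary process libraries. For Olfr394, the farthest, all 6 libraries lay between 480676 and 481034 bp.

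Several of the far families are made of near copies. None of the 22 alpha-defensin genes, 57 of the 121 vomeronasal receptor genes of type 2 and 92 of the 208 of type 1 had windows at least 90% unique, against 827 of the 1127 olfactory receptor genes. Over all closed genes, 404 (7.72%) had windows less than 10% unique, against 9 (0.0581%) of the open genes. Closed were 97.8% of the 413 genes with windows under 10% unique, against 14.6% of the 12436 genes with windows at least 99% unique. The part of unplaced reads in the closed calls of copied genes was not tested.

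Skin and hair genes formed the next group. Of the keratins 35 of 53 were closed, of the keratin-associated proteins of hair 45 of 57, and of the late cornified envelope and small proline-rich proteins 30 of 36. The share over all genes was 25.2%. Closed keratins included Krt1 of the upper epidermis and Krt34 of hair, whereas Krt18 of simple epithelia was open in every library. The nearest peaks to Krt1 lay at 4158 and 3569 bp in the maxillary process libraries, 4168 and 3767 bp in the mandibular process libraries and 4179 and 4177 bp in the nose libraries. Those to Krt34 lay between 26191 and 61598 bp. Medians for these families, 6927, 5894 and 6704.5 bp, were below that of all closed genes.

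Genes of salivary glands and most genes of tooth matrix were closed, beside 25.2% of all genes. All 13 saliva and tear secretion genes considered were closed, among them Amy1 (salivary amylase), Muc5b (a gel-forming mucin) and Scgb1a1. For Amy1 every library had the same nearest peak within the gene, at 7134 to 7189 bp. Of 12 enamel and dentin matrix genes 9 were closed. They included Enam, which encodes enamelin, Dspp, which encodes the sialophosphoprotein of dentin, and Mmp20, the protease of forming enamel. The nearest peak to Enam was called in all 6 libraries and lay inside the gene, at 11806 and 11813 bp in the maxillary process libraries, 11875 and 11896 bp in the mandibular process libraries and 11808 and 11808 bp in the nose libraries. For Mmp20 the 6 distances were 7552, 10969, 1600, 7348, 5715 and 5816 bp, the nearest being a peak of mandibular process replicate 1 alone. The exceptions were Ambn, which encodes ameloblastin and was open in all 6 libraries, Klk4 with peaks in 3 and Ibsp with peaks in 2.

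Genes of other organs were closed in most cases. Closed were 12 of 14 genes of T and B lymphocytes, 10 of 12 genes of the exocrine pancreas and 10 of 15 genes of the liver. So were 9 of 11 photoreceptor genes, 7 of 9 zona pellucida and oocyte genes and 8 of 13 sarcomere genes of skeletal muscle. Of all genes 25.2% were closed, and the part of CpG content in these counts was not tested. Cd3e, a chain of the T cell receptor complex, lay 32728 to 32825 bp from a peak called in all 6 libraries. Acta1, the actin of skeletal muscle, had its nearest peaks at 1608 and 1556 bp in the mandibular process libraries, against 2975 to 3151 bp in the other 4. The open members included Alb, which encodes serum albumin, Rag1, of the recombinase of lymphocytes, and Ptf1a, a transcription factor of the pancreas and hindbrain. All 3 were open in every library.

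Immune and secreted gene families followed the same pattern. Closed were 37 of 42 beta-defensins, 21 of 26 killer cell lectin-like receptors and 13 of 15 granzymes and mast cell proteases, beside 25.2% of all genes. Also closed were 22 of 35 chemokine ligands and 18 of 22 major urinary proteins. Only 4 of the 22 major urinary protein genes had windows at least 90% unique, and 1 of these 4 was closed. Of 20 genes whose names begin as those of type 1 interferons 16 were closed, and of the 4 open ones Ifnar1 and Ifnar2 encode the receptor and not a ligand. In the prolactin family, hormones of the placenta in the mouse, 22 of 25 were closed. Of the cytochromes P450, which oxidise drugs, steroids and fatty acids, 67 of 100 were closed, with 51.6% closed among the 64 with windows at least 90% unique. Genes known only as predicted models, named Gm, were closed at 855 of 1150, and at 262 of the 479 with unique windows (54.7%). Outside all lists 2110 of 15942 genes were closed, or 13.2%. The commonest stems of their names were Slc with 64 closed of 357 transporters, Cd with 41 of 88 surface antigens, Scgb with 31 of 33 secretoglobins, Il with 29 of 76 interleukins and their receptors, and, close to or below that share, Fam with 26 of 196 (13.3%) and Tmem with 26 of 235 (11.1%).

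Families of genes that every cell uses, or that pattern the embryo, were closed below the background of 25.2%. Over all genes of the high CpG class, defined below, the closed share was only 1.88%. The part of CpG content in the counts of these families was not tested. Of 39 genes named for the proteasome 1 was closed, Psmb11, the subunit particular to the cortex of the thymus, which lay 6891 to 6958 bp from a peak called in all 6 libraries. Of 92 ribosomal protein genes 9 were closed. Of these, 6 are annotated as pseudogenes by name (Rpl10-ps3, Rpl9-ps1, Rpl36a-ps1, Rpl36-ps4, Rpl9-ps6 and Rps12-ps3), and the other 3 are Rps27rt, Rpl10l of the testis and Rpl3l of muscle. Of 385 zinc finger genes named Zfp 35 were closed, but only 4 of the 291 with unique windows.

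Of the 39 Hox genes, which give position along the body axis and are known to be silent in the neural crest of the first pharyngeal arch, 5 were closed: Hoxa6, Hoxb1, Hoxb2, Hoxb7 and Hoxc6. The remaining 34 had a peak in at least 1 library, and 18 had one in all 6. The closed share of 12.8% lay below the 25.2% of all genes but above the 1.88% of the high CpG class. All Hox genes but Hoxb13 and Hoxc6 were of that class. Hoxb2 had peaks just beyond its window, at 1114 and 1516 bp in the maxillary process libraries, 1218 and 1501 bp in the mandibular process libraries and 1544 and 1180 bp in the nose libraries. For Hoxb1 the distances were 11235, 11203, 11033, 11039, 12101 and 11035 bp. Of the globin genes, Hba-a1, Hba-a2 and Hbb-bh2 were closed, while the embryonic Hbb-y was open in all 6 libraries. The adult alpha globin genes Hba-a1 and Hba-a2 are near copies, with 30.9% and 25.4% of their windows unique.

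The windows of closed genes were poorer in CpG than those of open genes. The ratio of observed to expected CpG was taken for each gene at the start site where it was highest. The median ratio was 0.163 (quartiles 0.119 and 0.231) in closed genes and 0.603 (0.451 and 0.725) in open genes. Open genes had a median of 2 start sites and closed genes of 1, and the part of this in the ratio and in the classes was not tested. G and C made up 43.3% of the closed windows and 53.3% of the open windows (medians). Genes were classed as high in CpG if a stretch of 500 bp in any of their windows had a ratio over 0.6 and at least 55% G and C. They were classed as low if no stretch of 500 bp in any window had a ratio over 0.4. By this measure 240 closed genes (4.59%) were high, 1398 (26.7%) intermediate and 3592 (68.7%) low, against 12531 (80.9%), 1948 (12.6%) and 1011 (6.53%) of the open genes. Read the other way, 78.0% of the low, 41.8% of the intermediate and 1.88% of the high class were closed. The closed set was not used to define these classes, but genes of a cluster share their sequence and are not independent, so no test was made.

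**Figure D3:**
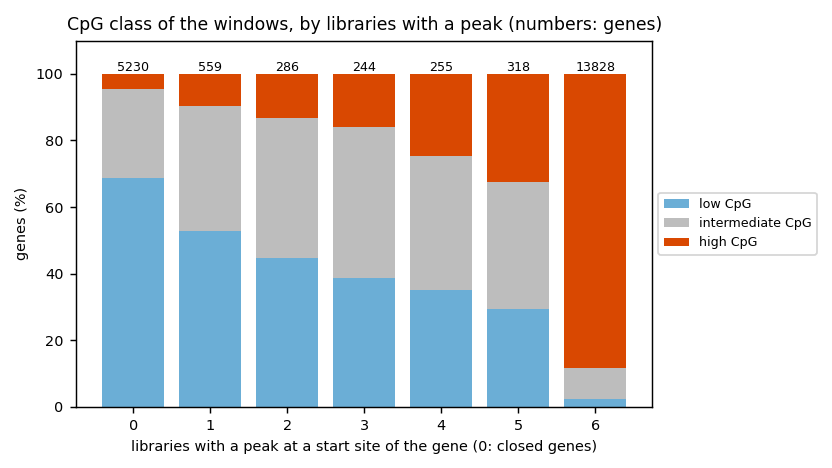
Share of windows of low, intermediate and high CpG class (percent of genes, stacked) by the number of libraries with a peak at a start site, with the number of genes above each bar. The high class holds 4.59% of the closed genes at the left, 9.48% to 32.4% of the genes open in 1 to 5 libraries and 88.5% of the genes open in all 6.

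The 1662 genes open in only some of the libraries lay between closed genes and genes open everywhere. The high CpG class held 4.59% of closed genes, 9.48% of the 559 genes open in 1 library, 16.0% of the 244 open in 3, 32.4% of the 318 open in 5 and 88.5% of the 13828 open in all 6. The median G and C share followed the same order, with 43.3%, 46.6%, 48.6%, 50.6% and 53.8%. Other properties differed as well. No 5′ untranslated region was annotated for 655 closed genes (12.5%), against 208 open genes (1.34%), so that for these the annotated start falls at the coding sequence and need not be the promoter. Closed genes had a median length of 7124 bp and open genes 23730 bp.

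Short sequence motifs of promoter factors differed between closed and open promoters. RefSeq gave a promoter, 250 bases before to 50 after the start, for 3767 closed genes (4055 promoters) and 11897 open genes (15092 promoters). Both strands were searched for each motif, and motifs that overlap each other were counted independently. GGGCGG, the GC box of the Sp factors, stood in 9.37% of closed, 58.7% of open and 48.3% of all 19147 promoters. CCGGAAG, of the ETS factors, stood in 2.52% of closed, 14.7% of open and 12.1% of all promoters. The TATA box TATAAA had the opposite order, with 28.0% of closed, 7.88% of open and 12.1% of all promoters. TAATTA, a core of homeodomain sites, stood in 9.94% of closed, 2.90% of open and 4.39% of all promoters, and TGANTCA, of AP-1, in 13.3% of closed, 5.33% of open and 7.01% of all promoters. The CCAAT box CCAAT differed less, with 39.8% of closed, 36.9% of open and 37.5% of all promoters, and so did CAGCTG, an E-box of bHLH factors, with 14.6% of closed, 16.1% of open and 15.8% of all promoters. Among closed olfactory receptor promoters TATAAA stood in 42.0% and TAATTA in 19.4%. The O/E site of the Ebf factors of olfactory neurons stood in 0.604% of them and 0.872% of all promoters. Within the low CpG class TATAAA stood in 30.6% of closed and 18.7% of open promoters, and GGGCGG in 5.96% of closed and 15.1% of open promoters. In that class CAGCTG stood in 13.9% of closed and 23.4% of open promoters, and TGANTCA in 13.5% of closed and 12.7% of open promoters. The part of base composition in these shares was not tested.

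Of the 240 closed genes of the high CpG class 96 had windows less than 90% unique, and in 59 of these less than 10% was unique. The 59 include near-identical copies such as the histone genes Hist1h2ao, Hist1h2ap, Hist1h2bq and Hist1h2br, the pair Entpd4 and Entpd4b, and Fam177a, Srp54b, Slc25a37, Tcte3 and Loxl2. Loxl2, a lysyl oxidase that crosslinks collagen, had windows only 2.12% unique and its nearest peak 87668 to 97562 bp away. Of the high class as a whole, 18.8% of genes with windows under 90% unique were closed, against 1.17% of those with windows at least 90% unique.

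The other 144 had windows at least 90% unique, and 22 of the 144 were on the list of meiosis and germ-line genes described below. Among the 20 of the 144 with the highest CpG ratio, Sycp1 and Sycp3 encode parts of the synaptonemal complex that joins paired chromosomes. Meioc holds germ cells in meiotic prophase, and Ddx4, the mouse vasa, and Mael act in the piRNA pathway that silences transposons. D1Pas1 and Papolb are retrogenes used in the testis, Hist1h2aa and Hist1h2ba encode histones of the testis, and Hsf5 and Stk31 are likewise genes of male germ cells. Pcdha1, Pcdha2 and Pcdha5, clustered protocadherins that give neurons their identity, were also among the 20, as was Hoxb7. The rest of the 20 were Chd3, with a ratio of 0.765, Gm37388, 4933416C03Rik, Sfi1 and Znrf4.

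**Figure D4:**
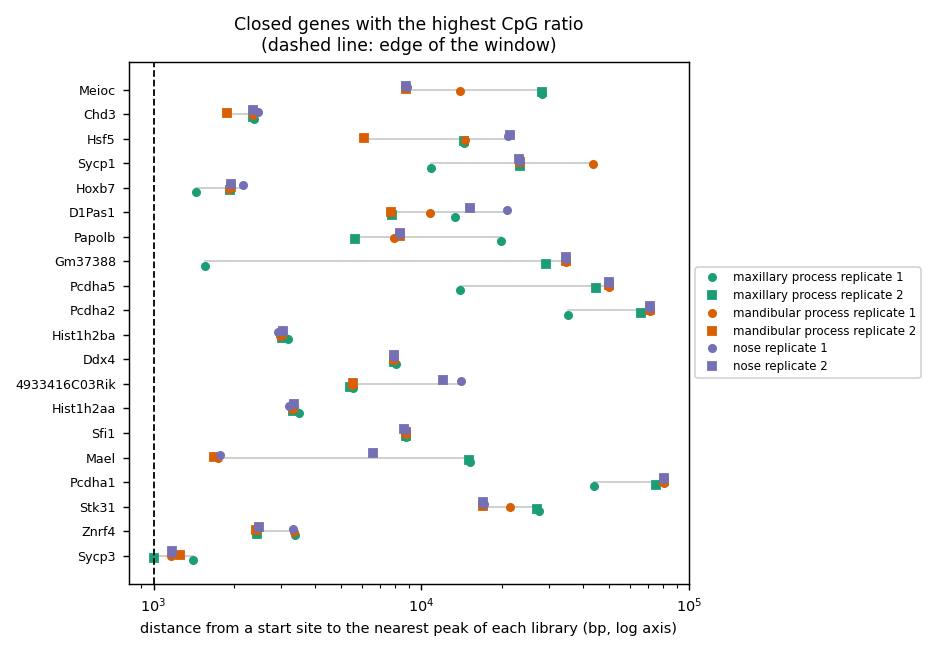
Distance from a start site to the nearest peak of each library (bp, log axis; colours, labels; circles and squares, replicates 1 and 2) for the 20 closed genes with the highest CpG ratio among those with windows at least 90% unique. The dashed line is the edge of the window at 1000 bp. Sycp3 lies nearest to it, at 1004 to 1406 bp, and Pcdha1 farthest, at 44025 to 80375 bp.

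The values by library spread widely for some of these genes and little for others. The nearest peak to Sycp1 lay at 10869 and 23268 bp in the maxillary process libraries, 43779 and 23245 bp in the mandibular process libraries and 23387 and 23049 bp in the nose libraries. For Meioc the distances were 28247 and 28246 bp (maxillary process), 13966 and 8766 bp (mandibular process) and 8857 and 8766 bp (nose). The maxillary process libraries were thus farther than the other 4 for Meioc, and for Sycp1 maxillary process replicate 1 was nearer than all others. For Ddx4 all 6 libraries lay between 7891 and 8052 bp, and for Hist1h2ba between 2905 and 3171 bp. For Sycp3 the distances were 1406, 1004, 1165, 1251, 1167 and 1170 bp, so every library had a peak beyond the edge of the window and none within it.

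A list of 46 genes of meiosis and the germ line, drawn up after these genes had been seen, gave 28 closed genes (60.9%), beside 25.2% of all genes. This list cannot serve as evidence apart from the choice. Of the closed genes on it 22 were of the high CpG class, and so were 17 of the 18 open genes. Among the closed were also Spo11, which makes the breaks of meiotic recombination, Dmc1, which repairs them, and Rec8, the meiotic cohesin. Among the open were Dazl, Stag3, Prdm9, Msh4 and Tdrd6, each with a peak in all 6 libraries. In the promoters of the closed genes of the list, CACGTG, an E-box bound by MAX and its partners, stood in 46.7% of 30, against 22.2% of 18 promoters of its open genes, 3.70% of all closed, 9.96% of open high CpG and 8.03% of all promoters. The 30 promoters belong to 24 genes. In closed high CpG genes with windows at least 90% unique, CACGTG stood in 19.2% of promoters. This set is not separate from the list, since 22 of its genes are on it. TCCCGC, a letter run of E2F sites, stood in 40% of the 30, against 55.6% of those of the open genes of the list. It stood in 37.5% of open high CpG promoters, 27.9% of those of closed high CpG genes with unique windows and 26.9% of all promoters. Both motifs were added after the genes had been seen.

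Closed genes lay both alone and in long runs. Neighbouring closed genes, with no open protein-coding gene between them, formed 2136 runs. Of these 1434 were of a single gene, with 27.4% of the closed genes, and 86 were of 10 or more, with 1721 closed genes (32.9%). Of the 1721 genes 920 were chemosensory receptors. The 86 runs spanned 78.3 Mb and held 12.6 merged regions of peaks per Mb, against 151 per Mb over chromosomes 1 to 19. Since the runs hold only genes without a peak at their start sites, part of this difference was set by the rule.

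The longest run held 105 genes over 4.10 Mb of chromosome 7, from Ceacam20 to Vmn1r183 (19965412 to 24063554), with no peak of any library in it. It held 65 vomeronasal receptor genes of type 1 and 35 predicted genes, and the median window was 2.56% unique. The next were 58 genes on chromosome 2 from Olfr52 to Olfr1124, of which 57 were olfactory receptors with a median of 97.2% unique windows, and 58 on chromosome 14 from Sftpa1 to Ear10, of which 49 were predicted genes with a median of 14.7%. The run on chromosome 2 had 13 regions in 1.26 Mb, or 10.3 per Mb. A run of 31 genes on chromosome 11 from Olfr376 to Olfr412, of which 29 were olfactory receptors, had 1 region in 0.995 Mb, although the median window was 95.7% unique. The closed share was highest on chromosomes 7 (38.2%) and 14 (37.6%) and lowest on chromosome 12 (13.2%). Without the chemosensory receptors it was 25.1% on chromosome 7 and 34.9% on chromosome 14.

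The nearest region to a closed gene ranged from a peak of 1 library to one shared by all. It was called in 1 library for 2416 closed genes (46.2%) and in all 6 for 1064 (20.3%). It lay upstream of 2675 and downstream of 2555. In 743 cases (14.2%) it was the peak of an open promoter of another gene, and in 1068 (20.4%) it lay within the closed gene itself. A peak stood anywhere in the gene in 1572 closed genes (30.1%). Most of these carried few, but Arhgap15 held 125 merged regions, Pdzd2 122, Malrd1 118 and Slc8a1 89. Arhgap15, Pdzd2 and Slc8a1 were open at another start site, of a transcript not in the set used or of RefSeq. Malrd1 was not.

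**Figure D5:**
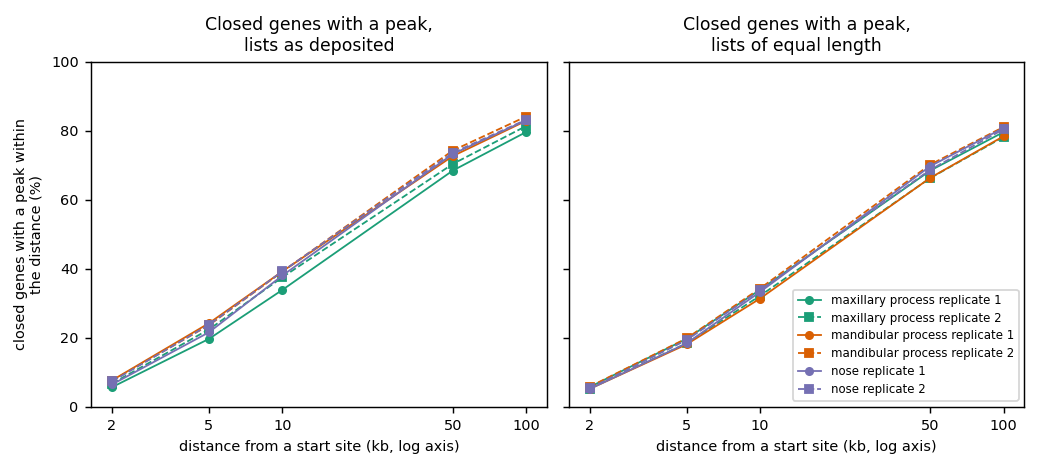
Share of closed genes with a peak of each library within 2, 5, 10, 50 and 100 kb of a start site (percent, log distance axis; colours, labels; circles and squares, replicates 1 and 2), with the lists as deposited (left) and cut to the same number of lines (right). At 10 kb the libraries lie between 33.8% and 39.2% on the left and between 31.3% and 34.2% on the right.

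With the lists as deposited, peaks around the closed promoters were somewhat fewer in the maxillary process libraries. The share of closed genes with a peak within 10 kb was 33.8% and 37.5% in the maxillary process libraries, 39.2% and 39.1% in the mandibular process libraries and 38.0% and 39.2% in the nose libraries. Both maxillary process libraries were below the other 4 at 10, 50 and 100 kb. Maxillary process replicate 1, lowest of all at each of the 5 distances, also had the shortest list, whereas that of replicate 2 was among the longest. The lists did not end at the same significance. The lowest −log10 q was 2.546 in maxillary process replicate 2 (299726 peaks) and 1.6198 in mandibular process replicate 1 (299731 peaks). In the other libraries it was 1.3002 to 1.3004. Weak peaks listed there may thus be missing from these long lists, and the part of this in the shares was not tested. With every list cut to its 219779 best lines the shares were 33.8% and 32.1% (maxillary process), 31.3% and 34.2% (mandibular process) and 33.2% and 33.7% (nose), and the 3 labels overlapped at 10 kb. At 100 kb both nose libraries (80.8% and 80.5%) were still above both maxillary process libraries (79.6% and 78.2%), with the mandibular process libraries at 78.4% and 81.1%. Of the nearest regions, 75 were called in both maxillary process libraries and in no library of another label, 103 likewise in both mandibular process libraries and 115 in both nose libraries. These counts use the lists as deposited, with their different lowest −log10 q, and the part of this in them was not tested.

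The choice of start sites moved a small part of the set. With every annotated transcript or with RefSeq start sites, 372 closed genes had an open start, and 4858 were closed at all of them. Of the 144 unique closed genes of the high CpG class 125 stayed closed at every start, among them Sycp1, Meioc, Ddx4, Hsf5 and Hoxb7, and Sfi1 did not. Cngb1 and Hoxc6 were open at such another start as well. Of the 28 closed genes of the germ-line list 21 stayed closed.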

How the data were processed

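Per the labels, sequencing gave single-end reads of 50 bases. Bowtie2, SAMtools and the build mm10 are named in the submitters' processing notes. The methods of the study describe the ENCODE pipeline for unreplicated ATAC-seq, with low quality and duplicate reads removed, reads shifted for Tn5, a fixed number of reads taken for peak calling and blacklisted regions left out. Whether that text covers these mouse files is not stated, and a start site in a blacklisted region would count as closed. The peak caller is not given in the sources used here.

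The authors deposited 1 narrowPeak list for each library, in which each summit has values of significance (−log10 of p and of q), enrichment and score. The deposited score follows the significance (10 times its −log10 p, cut to whole numbers and capped). The deposited fold is the ratio of a summit to its background in the same library. Presence of a peak was the measure used, and the −log10 p and −log10 q served only to filter lists. Read depth and detection limits are unknown.

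Start sites were those of protein-coding transcripts in the GENCODE M21 basic set. All peaks ended within the GRCm38 chromosome lengths. The distance was that to the nearest peak edge, the lowest over start sites. Peaks of all libraries that overlapped by 1 bp were merged into regions. Base composition and 50-base stretches that occur once were computed from the GRCm38 genome over the windows, and the count of unique stretches was tested on simulated data. Python 3.11.15, numpy 2.4.6, pandas 2.3.3 and numba 0.67.0 were used. Promoter sequences were from RefSeq.

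The families, lists and the rule itself were chosen with earlier results of these data known. Genes are named by family (the nearest and farthest closed member, and all members of a minority of 5 or fewer), as the 10 farthest, the 10 just outside and 10 just inside the window, as the 20 closed high CpG genes with the highest ratio, and by the 10 longest runs and 5 commonest name stems. Others, and the germ-line list, the RefSeq start sites and 2 motifs (TCCCGC and CACGTG), were chosen after their values had been seen. No paired analysis and no test were made, since the closed genes were selected on the values. Muc19, Akap4 and Bmp15 of the lists had no match in the set used and were not analysed here.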

Additional observations from a re-analysis of the deposited data

How the results depend on the processing

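No paired analysis was possible because no result comes from a test. All planned and added alternatives were run. The number of closed genes (5230) was 4537 to 6431, within 1.5 times of it, under every alternative but one, in which genes with windows under 90% unique were left out and 3438 of 18250 remained. The percent of olfactory receptor genes closed (89.4%) was 91.7% with windows of 500 bp and 82.8% with 2 kb. It was 94.9% with peaks of −log10 q of at least 3, 97.1% with at least 5, 92.7% with lists of equal length, 95.4% where both libraries of a label had to have a peak, 93.1% with the 5′-most start site alone and 87.9% among genes with unique windows. The median distance (8846.5 bp) was 7387.5 bp with windows of 500 bp and 11753 bp with 2 kb. It was 12432 bp with −log10 q of at least 3, 16659 bp with at least 5, 10656 bp with lists of equal length, 12898 bp where both libraries of a label had to have a peak and 6013.5 bp among genes with unique windows. Leaving out each library in turn gave 89.7% to 90.6% of olfactory receptor genes closed. A closed call rests on the lists as deposited and not on reads.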

Other observations

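The X chromosome was not part of the set. The same rule left 388 of its 948 protein-coding genes closed (40.9%), with a median distance of 20214 bp to the nearest peak. Of the 34 Rhox genes, homeobox genes of the reproductive tissues, 33 were closed, and of 19 Mage genes, many of them used in the testis, 13 were closed. Predicted genes named Gm were closed at 98 of 115.

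Of the 120 olfactory receptor genes that were open, 12 were open in all 6 libraries. They were Olfr56, Olfr94, Olfr156, Olfr304, Olfr459, Olfr556, Olfr557, Olfr658, Olfr675, Olfr876, Olfr957 and Olfr958. Olfr94, with a high CpG window, was one of them. Of the 12, 10 had 2 or more annotated start sites. This did not set them apart, since only 155 of the 1007 closed olfactory receptor genes had a single one. A further 59 were open in 1 library alone.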
